A study of Homo sapiens with 6 samples.

Results

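GAS5, SNHG1, SNHG5, SNHG6, SNHG8, SNHG16, ZFAS1 and EPB41L4A-AS1 are noncoding RNAs whose introns carry small nucleolar RNAs (snoRNAs). They were chosen by gene name, and each had 1 RefSeq transcript in the data, so that 8 of 15367 named genes are described here. The measurements were reverse transcription (RT) stops in poly(A)-selected RNA from U2OS, a human osteosarcoma cell line, and every condition was 1 library, so that no value below has a replicate check and no test between conditions was possible. By the labels, 2 libraries came from RNA without dimethyl sulfate (DMS) that was reverse transcribed in 150 mM Na+ or K+, 2 from RNA folded in vitro and treated with DMS in 150 mM K+ or Li+, and 2 from living cells treated with 8% DMS for 5 min, either unstressed or starved for 2 h in Hank's balanced salt solution. DMS methylates unpaired A and C, and these methylated bases stop the enzyme. File names give the opposite cations for the 2 libraries without DMS, and the study's methods name Li+ where the labels name Na+. Both assignments are therefore given wherever a result depends on them.

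The exons of a snoRNA host RNA are joined, exported and in many cases bound by ribosomes, although they hold only short reading frames. The snoRNAs are trimmed from the introns and guide chemical modification of ribosomal and spliceosomal RNA. Many host RNAs start with a 5′ terminal oligopyrimidine (TOP) tract, the element that ties ribosomal protein mRNAs to mTOR signalling and thereby to nutrient supply. Their early stop codons make several of them substrates of nonsense-mediated decay (NMD), which depends on translation. GAS5 takes its name from growth arrest, in which its spliced RNA is known to accumulate.

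The starts of the host RNAs were read from the transcript sequences of GENCODE release 44 on GRCh37 (hg19), because a TOP tract is the feature by which these RNAs resemble ribosomal protein mRNAs. The 30 nt windows below run 5′ to 3′ along the RNA from 10 nt before the start of the RefSeq record where the annotation allowed it. For ZFAS1 and EPB41L4A-AS1, which had no listed stop in the first part of the record, they run from just before the first listed stop. Capitals mark runs of at least 4 pyrimidines, and all windows lie in exon 1.
GAS5, chr1:173837104-173837133, minus strand: tactgTCTTTTCgaggtaggagtcgaCTCC
SNHG1, chr11:62623341-62623370, minus strand: ggggagattcgTTCTCaTTTTTCTactgct
SNHG5, chr6:86388432-86388461, minus strand: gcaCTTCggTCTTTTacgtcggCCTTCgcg
SNHG8, chr4:119199907-119199936, plus strand: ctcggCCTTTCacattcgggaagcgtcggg
SNHG16, chr17:74553836-74553865, plus strand: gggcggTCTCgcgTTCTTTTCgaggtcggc
ZFAS1, chr20:47895168-47895197, plus strand: agccattcgTTCTTTCgcgtctgcggtgcc
EPB41L4A-AS1, chr5:111496560-111496589, plus strand: TCCTTTCTTCCTTTTggtgcgagcttgctg
The first listed stop of GAS5 was at position 4 of its record, that of SNHG8 at position 2 and that of SNHG5 at position 6, whereas the first of ZFAS1 was at position 469 and that of EPB41L4A-AS1 at position 353. In the RefSeq promoter table of GRCh38.p14, a C followed by at least 4 pyrimidines, on the strand of the gene, began within 5 nt of the annotated start in 4 of the 7 members with an entry (SNHG5, SNHG8, SNHG16 and ZFAS1). It did so in 21.1% of all 35116 promoters. The 3 members without it at that start (GAS5, SNHG1 and EPB41L4A-AS1) are described in the same way below. For GAS5 and EPB41L4A-AS1 the call depends on the annotated start. In the windows above, a C followed by at least 4 pyrimidines begins just before the start of the GAS5 record. Such a run also lies just before the first listed stop of EPB41L4A-AS1.

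The records were 308 nt (SNHG8), 472 nt (SNHG6), 524 nt (SNHG5), 651 nt (GAS5), 1020 nt (ZFAS1), 1134 nt (SNHG1), 1194 nt (EPB41L4A-AS1) and 2434 nt (SNHG16) long. GAS5 spans 12 exons at chr1:173833051-173837125, SNHG1 11 exons at chr11:62619471-62623360 and SNHG5 6 exons at chr6:86386742-86388451. SNHG16, at chr17:74553846-74561400, has 3 exons in the matched transcript. SNHG8 was the richest in A, at 40.6% of its bases, and EPB41L4A-AS1 the poorest, at 21.1%.

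The share of a library's stops that falls on a transcript was used as its level, in parts per 1000000 stops (ppm). Libraries held between 19060253 (unstressed) and 47967782 (no DMS, K+) stops, rebuilt from the listed nucleotides (those with at least 3 stops) and the deposited ratios. Intervals are exact 95% intervals and cover counting error only. A share is relative: in bulk samples fewer cells of a type and less RNA per cell cannot be told apart, nor can a gain of one RNA and a loss of others. The labelled cell type was checked with mesenchymal markers, of which VIM held 2399 ppm in unstressed and 2229 in starved cells. SPARC was at 880 and 266.0 ppm, COL1A1 at 603 and 165, CD44 at 228 and 171 and RUNX2 at 24.6 and 42.9, whereas COL1A2 was at 0. Of 6 markers of other cell types, PTPRC, ALB and CD3E were at 0 in both in vivo libraries, and the highest level of EPCAM, CDH1 and HBB in any library was 8.86 ppm.

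Starved cells gave every one of the 8 host RNAs its highest share among the 6 libraries, against 43.8% of 1419 transcripts measured in all libraries. The starved share was at least 1.5-fold above each other library in 7, against 22.1%. Set against unstressed cells alone, these 7 (all but SNHG16) were at least 1.5-fold higher and 6 of them at least 2-fold. The background was 28% of 1438 transcripts at least 1.5-fold higher and 12.9% at least 2-fold higher, among those with at least 1 stop per nucleotide in both in vivo libraries, and 31.7% at least 1.5-fold lower. Of the members, 7 met that minimum, 6 of them at least 1.5-fold higher, while EPB41L4A-AS1 did not meet it. The median starved to unstressed ratio was 2.91 for these 7 and 0.989 for all 1438 transcripts.

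GAS5 held 97.4, 101, 92.9 and 102 ppm in the 4 libraries from outside living cells (no DMS in Na+, no DMS in K+, in vitro K+, in vitro Li+). It held 165 (159 to 171) ppm in unstressed and 444 (437 to 452) in starved cells. The 4 libraries from outside living cells thus lay close together, unstressed cells lay above them and starved cells above all others, with intervals that did not overlap. The starved to unstressed ratio of GAS5 was 2.69 (2.59 to 2.80), above 97.0% of the tested transcripts.

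SNHG5, the host of SNORD50A and SNORD50B, had a ratio of 3.33 (3.07 to 3.62). Its shares were 27.3 and 26.5 ppm without DMS, 21.4 and 25.8 in vitro, 35.4 in unstressed and 118 in starved cells. No U of SNHG5 was listed in unstressed cells or in vitro in K+, so that its totals there lack stops at U, which were 5.92% of its stops in starved cells, and its ratio at A and C only was 3.21. ZFAS1, the antisense neighbour of ZNFX1 and host of the SNORD12 family, had 134 and 139 ppm without DMS, 122 and 130 in vitro, 168 in unstressed and 556 in starved cells. Its ratio of 3.31 (3.19 to 3.44) and that of SNHG5 had overlapping intervals.

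SNHG6, the host of SNORD87, held 159, 166, 146 and 158 ppm outside cells, 175 in unstressed and 519 in starved cells. SNHG8, the host of SNORA24, held 87.2, 94.2, 81.0 and 86.7 outside cells, 111 in unstressed and 324 in starved cells. The ratios of SNHG6, 2.98 (2.87 to 3.09), and SNHG8, 2.91 (2.78 to 3.05), also had overlapping intervals, and both lay above 98% of the tested transcripts. EPB41L4A-AS1 was the scarcest member, with 13.7 to 15.5 ppm outside cells, 18.5 (16.6 to 20.6) in unstressed and 44.4 (42.1 to 46.8) in starved cells. Its ratio of 2.40 (2.13 to 2.70) rests on 193 listed stops in unstressed cells, none of them at G. It was 1.94 at A and C only and 3.90 with strong stops left out.

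SNHG1 and SNHG16 stood lowest. SNHG1, which hosts SNORD22 and SNORD25 to SNORD31, held 149, 152, 154 and 149 ppm outside cells, 269 in unstressed and 476 in starved cells, a ratio of 1.77 (1.72 to 1.83). SNHG16, the host of the SNORD1 family, held 223, 229, 227 and 219 outside cells, 396 (387 to 405) in unstressed and 427 (419 to 434) in starved cells, a ratio of 1.08 (1.05 to 1.11). For SNHG16 both in vivo libraries were thus close to each other and well above the other 4. Counting error separates SNHG1 and SNHG16 from each other and from the other members, but the spread between cultures was not measured.

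**Figure D1:**
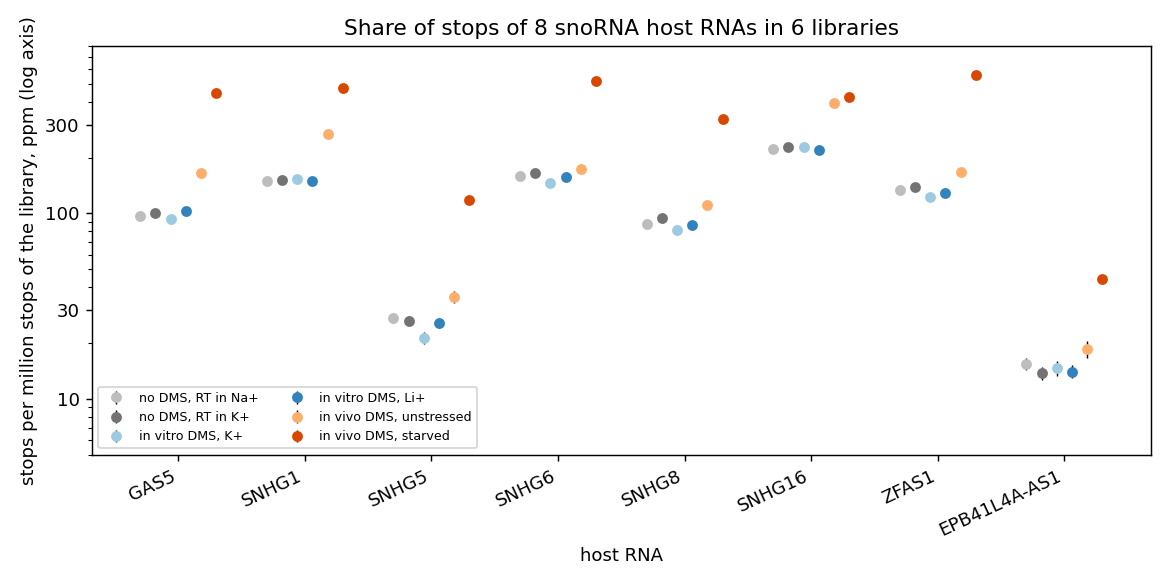
Share of stops in ppm (log axis) for each host RNA in the 6 libraries, with exact 95% counting intervals as bars. The starved library is the highest for all 8 RNAs, and for SNHG16 the unstressed library (396 ppm) comes close to it (427).

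The same pattern was compared with RNA folded in vitro in K+. Starved cells were at least 1.5-fold higher in all 8 members, from 1.88-fold (SNHG16) to 5.51-fold (SNHG5), against 28.9% of 1999 transcripts. Unstressed cells were at least 1.5-fold higher than the same RNA in vitro in 4 members, against 22.3% of 1747 transcripts. These were GAS5 at 1.78-fold (1.69 to 1.87), SNHG16 at 1.75-fold, SNHG1 at 1.74-fold and SNHG5 at 1.66-fold, whereas SNHG6 was at 1.20-fold, EPB41L4A-AS1 at 1.26-fold and SNHG8 and ZFAS1 each at 1.38-fold. All 8 were thus above their in vitro share in unstressed cells, as was the median transcript at 1.21-fold, and members differed in how far. Both comparisons share the in vitro library.

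Short transcripts had higher starved to unstressed ratios over all transcripts, though the ratio did not fall steadily with length. Of 158 tested transcripts of up to 700 nt, 54.4% were at least 1.5-fold higher in starved cells, with a median ratio of 1.62, while of 430 transcripts between 1500 and 2500 nt 23.0% were, with a median of 0.844. The share was 16.5% of 273 transcripts from 2500 to 5000 nt, with a median of 0.901, and 30.3% of 33 longer ones, with a median of 1.07. Among transcripts of up to 1200 nt the background was 38.5%. Within their own length class, GAS5, SNHG5, SNHG6 and SNHG8 (all under 700 nt) stood at percentiles 86.7, 92.4, 90.5 and 89.2. ZFAS1 stood at percentile 99.7 of the class from 1000 to 1500 nt, EPB41L4A-AS1 at 93.9 and SNHG1 at 78.8, and SNHG16 at 60.7 of its class. The part of length in the members' ratios was not tested.

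**Figure D2:**
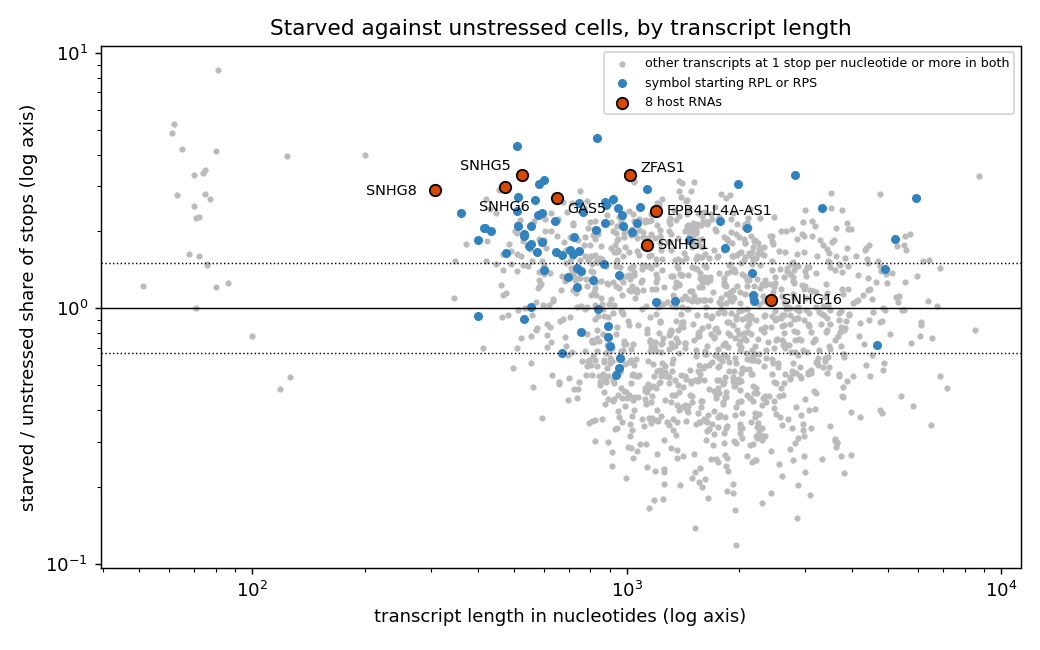
Starved to unstressed ratio of the share of stops against transcript length, both on log axes, for 1438 transcripts with at least 1 stop per nucleotide in both in vivo libraries and for EPB41L4A-AS1, with dotted lines at a 1.5-fold difference. Of the 8 host RNAs 7 lie above the upper line, in a region that also holds many short transcripts and ribosomal protein mRNAs, and SNHG16 lies near 1.

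Ribosomal protein mRNAs, the classic TOP mRNAs, had all 79 listed members measured at the minimum. Of these 49 were at least 1.5-fold higher in starved cells and 3 at least 1.5-fold lower, with a median ratio of 1.82. RPL17 had the largest ratio, 4.62 (4.45 to 4.81), and RPL28 (0.549) and RPS2 (0.641) had the smallest. Of 15 other TOP mRNAs, which encode translation factors and related proteins, 6 were higher and 2 lower, with a median of 1.38. EIF3E (3.12), a subunit of initiation factor eIF3, and NPM1 (2.11), a nucleolar chaperone, led these, and EEF2 (0.474), the translocation factor, and EIF3F (0.542) came last. TOP mRNAs thus went in both directions, as a group with a higher median than the 0.989 of all transcripts.

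Other noncoding snoRNA hosts lay on both sides of 1. Of 15 listed, 13 had a transcript and 5 met the minimum, with 2 of these at least 1.5-fold higher and none lower. The 8 below it ran from 0.444 (SNHG11) to 3.40 (SNHG4), with 2 at least 1.5-fold higher and 3 (SNHG11, SNHG17 and SNHG18) at least 1.5-fold lower. SNHG3 was at 1.81 (1.74 to 1.88), SNHG29 at 1.68 (1.64 to 1.72), SNHG9 at 1.098 (1.01 to 1.19) and SNHG7 at 0.725 (0.688 to 0.765), with DANCR, the remaining one, between SNHG29 and SNHG9. The 5 at the minimum held at least 1.59 stops per nucleotide in unstressed cells. Of 14 protein-coding snoRNA hosts at the minimum, 5 were higher and 3 lower, with a median of 1.04. NOP58 (2.13), which encodes a core protein of box C/D snoRNPs, and EIF4A2 (1.81) had the largest ratios, and EEF2 (0.474) and NCL (0.539), which encodes nucleolin, the smallest.

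Of the proteins that package snoRNAs, 7 of 9 mRNAs met the minimum, with 2 higher and 2 lower. NOP58 and NOP10 (1.71) were the highest, while FBL (0.371), which encodes the methyltransferase of box C/D snoRNPs, and NHP2 (0.552) were the lowest. None of 10 mRNAs of NMD factors met the minimum, so that the decay machinery itself could not be described. Of 6 mRNAs known as NMD substrates only ATF4 did, at a ratio of 0.707 (0.686 to 0.729). MALAT1 (3.29) and NEAT1 (2.42), 2 nuclear noncoding RNAs that are not translated, were also higher in starved cells.

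The transcripts nearest to GAS5 in the pattern of shares over the 6 libraries, by Euclidean distance of centred log2 shares, were RPL21 (0.394), RPS27 (0.412), RPL36A (0.426), RPL39 (0.449) and NEAT1 (0.450). Nearest to the mean of the 7 members measured in all libraries were RPL36A (0.121), RPS27 (0.140), MT1E (0.189), COX7C (0.206) and COX6C (0.215). Among the members themselves, SNHG8 and ZFAS1 were closest (0.179) and SNHG5 and SNHG16 farthest apart (1.32).

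The snoRNAs inside these host genes were also listed in the data, as 26 transcripts located within the 8 genes by their RefSeq positions. They were added after their values had been seen. To keep the choice apart from the comparison, those with at least 20 listed stops without DMS under the K+ label, and some in unstressed cells, were counted. Of these 18, 16 had a starved to unstressed ratio of at least 1.5 and 1 a ratio at least 1.5-fold lower, with a median of 3.37. Among 36 other snoRNAs taken in the same way, 17 were higher and 5 lower, with a median of 1.48. Although the RNA was poly(A)-selected, SNORD79 held 56.2 and SNORD44 26.8 listed stops per nucleotide in starved cells, against 21.9 for GAS5 itself. Without DMS under the K+ label these values were 27.7, 6.85 and 7.20. The other GAS5 snoRNAs lay below their host, from 0.365 (SNORD75) to 6.51 (SNORD80) in starved cells. Of the remaining hosted snoRNAs, only SNORD29 (24.2, SNHG1 13.4) and SNORD50A (12.3, SNHG5 6.94) lay above their host there.

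Within GAS5, SNORD79 had 307 listed stops in unstressed and 4556 in starved cells, a ratio of 8.03 (7.16 to 9.05), and SNORD44 had 187 and 1634, a ratio of 4.73 (4.06 to 5.53). The share of SNORD79 was 39.5 to 47.3 ppm outside cells, 16.5 in unstressed and 142 in starved cells. Its unstressed share thus lay below all other libraries, as well as its starved share above them. Of the other GAS5 snoRNAs that met the minimum without DMS, which like these guide ribose methylation, SNORD80 was at 2.32, SNORD47 at 2.95 and SNORD76 at 3.20. Of 7 in SNHG1, 6 were at least 1.5-fold higher, with SNORD26 (4.37) and SNORD29 (3.88) the highest. The remaining one, SNORD22, with 261 listed stops in unstressed and 240 in starved cells, was lower at 0.498 (0.416 to 0.595). In ZFAS1, SNORD12C (8.53), SNORD12B (8.42) and SNORD12 (4.31) were all higher. SNORD1C of SNHG16 had 7 and 115 listed stops, a ratio of 8.89 (4.18 to 22.6) that rests on these few stops in unstressed cells. It held 2.16 to 3.39 ppm outside cells, 0.472 in unstressed and 3.90 in starved cells, so that the unstressed share was the low one. SNORD50A of SNHG5 was at 2.75 and SNORD87 of SNHG6 at 1.44 (1.07 to 1.95).

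The share of an RNA's stops at A or C reports how much of its signal comes from DMS. Without DMS, GAS5 had 50.0% (48.5 to 51.4) of its stops at A or C in Na+ and 49.9% in K+. With DMS it had 76.7% and 74.8% in vitro in K+ and Li+, 81.8% (80.5 to 83.2) in unstressed and 72.8% (72.1 to 73.5) in starved cells. Intervals of this share are 95% Wilson intervals. The order, with unstressed cells above RNA in vitro and starved cells lowest of the DMS libraries, was the same for 7 of the 8 members. In SNHG5 the Li+ library, at 72.6% (69.9 to 75.1), lay below the starved one, at 75.4% (74.0 to 76.7), with overlapping intervals.

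All 8 members had a lower A and C share in starved than in unstressed cells, as did 99.9% of 1419 transcripts with at least 1 stop per nucleotide in all libraries, so that this is no property of the host RNAs. The median over these transcripts was 83.6% for unstressed and 73.9% for starved cells, with a median difference of -9.70 percentage points. Members ranged from -7.76 points (SNHG6) to -12.2 points (SNHG5), apart from EPB41L4A-AS1 at -26.0 points. The unstressed shares of both SNHG5 and EPB41L4A-AS1 are raised by the listing limit, since no U of the former and no G of the latter was listed and their stops were rebuilt as 0. The share of EPB41L4A-AS1, 93.5% (90.4 to 95.6), also rests on few listed stops. The DMS signal was thus lower in the starved library across the RNAs described here. With 1 library per condition, starvation and a difference between preparations cannot be told apart. At G and U alone, where DMS adds few stops, the starved to unstressed ratio was 2.58 for GAS5, 2.87 for SNHG6, 3.11 for SNHG8, 3.30 for ZFAS1, 1.88 for SNHG1 and 1.07 for SNHG16. The values of SNHG5 (4.19) and EPB41L4A-AS1 (7.64) each lack a base in unstressed cells and cannot be set beside these.

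**Figure D3:**
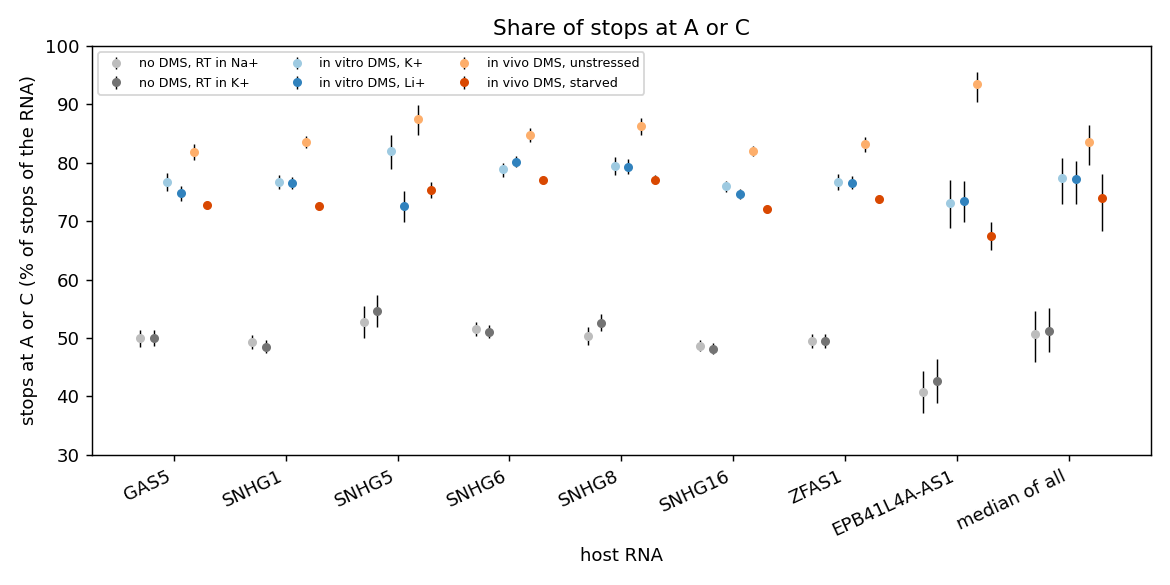
Percentage of stops at A or C for each host RNA and library with 95% Wilson intervals, on an axis that runs from 30 to 100, beside the median of 1419 transcripts with bars from the 10th to the 90th percentile. Libraries without DMS lie near 50% for all but EPB41L4A-AS1 (40.7% and 42.6%), unstressed cells are the highest of all libraries for every RNA and starved cells are below unstressed cells for all 8.

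Along the transcripts, listed stops were counted in 3 parts of equal length, from the first to the last listed nucleotide, since the short reading frames lie near the start of these RNAs. Over 1419 transcripts the 3′ part held a median of 38.1% to 39.1% outside cells, 52.6% in unstressed and 51.7% in starved cells, so that both in vivo libraries were shifted to the 3′ part in general. In SNHG16 the 3′ part held 27.3% to 28.7% of listed stops in the 4 libraries from outside cells, 53.6% in unstressed and 31.8% in starved cells, so that the unstressed value lay near the median transcript and the starved one below it. Its 5′ part held 30.3% in unstressed and 53.8% in starved cells. The starved to unstressed ratio of SNHG16 was accordingly 1.90 (1.80 to 2.00) in the 5′ part, 0.958 (0.888 to 1.03) in the middle and 0.635 (0.606 to 0.664) in the last. The ratio near 1 of the whole RNA thus joined a higher 5′ part and a lower 3′ part.

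GAS5 held 63.0% of its listed stops in the 3′ part in unstressed and 50.1% in starved cells, with 49.9% to 53.5% outside cells. In the other direction, SNHG5 held 16.6% in unstressed and 29.5% in starved cells, and SNHG6 38.7% and 46.8%. The 3′ part was at least 10 points higher in unstressed than in starved cells in 2 members (SNHG16 and GAS5) of the 7 at the minimum, against 7.82% of 1419 transcripts. SNHG1 (52.3% and 49.6%), SNHG8 (35.7% and 35.0%) and ZFAS1 (53.2% and 49.9%) differed by less. In the 5′ part, the 7 members at the minimum had ratios of listed stops from 1.90 (SNHG16) to 6.12 (SNHG5, 5.01 to 7.53). Of 1404 transcripts with at least 20 listed stops there in vitro in K+ and some in unstressed cells, 35.2% reached 1.5, with a median of 1.04. EPB41L4A-AS1 had 9 and 78 listed stops there, a ratio of 4.69 (2.35 to 10.6). The 5′ part did not have the highest ratio in every member. SNHG5 reached 7.16 and SNHG6 3.47 (2.43 in the 5′ part) in the 3′ part, and ZFAS1 3.80 in the middle (3.18 in the 5′ part). In the remaining members the 5′ part was the highest. The values of SNHG5 rest on 106 listed stops in the 5′ part and 81 in the 3′ part in unstressed cells.

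**Figure D4:**
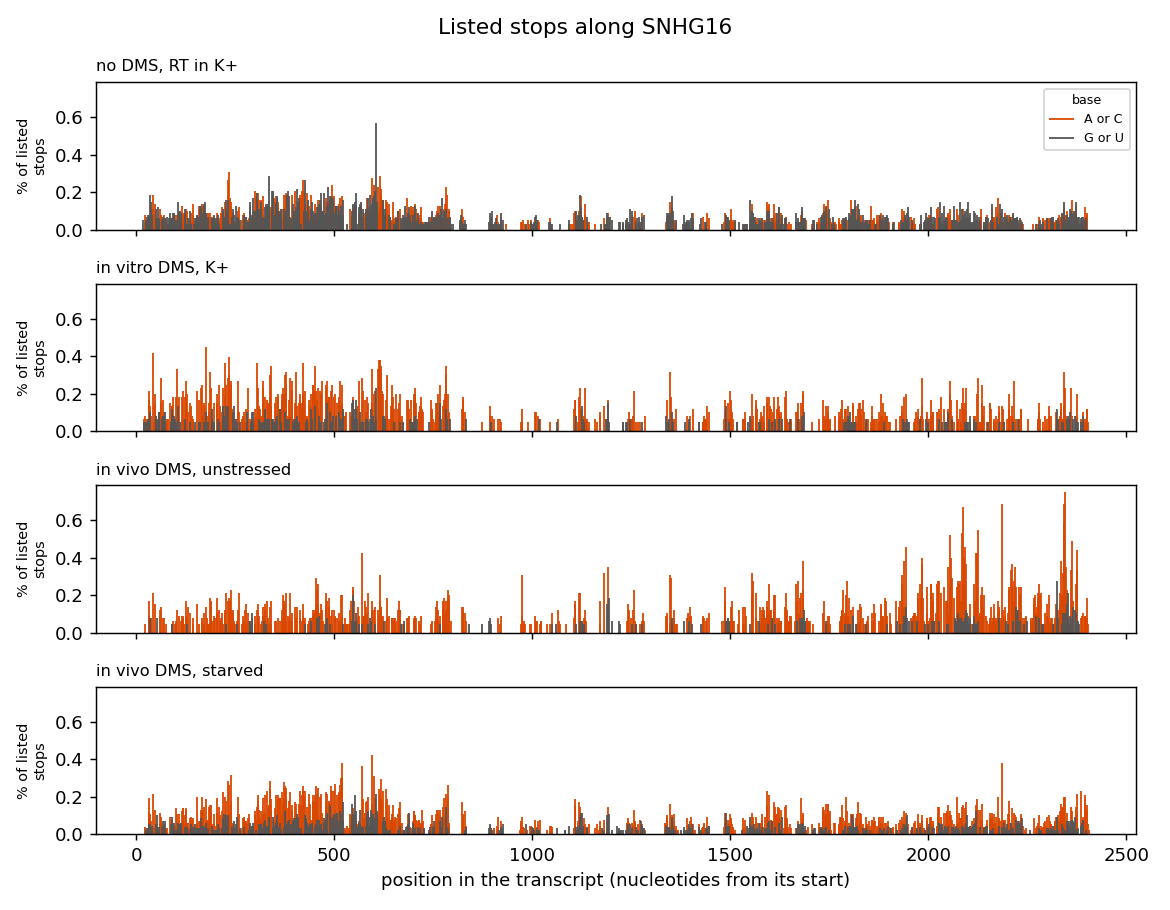
Each listed nucleotide of SNHG16 as a percentage of the RNA's listed stops, by position from the start of the transcript, in 4 libraries, with A or C and G or U in separate colours. The 3′ part holds 53.6% in unstressed and 31.8% in starved cells, where the median transcript holds 52.6% and 51.7%.

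The profiles of single A and C nucleotides were compared by Pearson's correlation of log2(count + 1), a description across nucleotides of the same RNA that share depth and sequence. Between unstressed and starved cells it was 0.767 for SNHG6 (200 nucleotides), 0.754 for SNHG8 (127), 0.753 for ZFAS1 (249), 0.649 for GAS5 (297) and 0.634 for SNHG1 (500). It was lower for SNHG5 at 0.352 (199), SNHG16 at 0.278 (867) and EPB41L4A-AS1 at 0.0507 (131), the last with few stops a nucleotide. Starved cells and RNA in vitro in K+ had a correlation of 0.757 for GAS5 and 0.888 for SNHG8, while unstressed cells and the same in vitro library had 0.413 and 0.602. The median over the members was 0.698 for the former pair and 0.357 for the latter, and depth differed between the in vivo libraries. Over nucleotides listed in both libraries of a pair the gap was smaller, with medians of 0.644 and 0.563, and 0.680 and 0.619 for GAS5. There SNHG5 (0.271 and 0.411) and EPB41L4A-AS1 (0.347 and 0.409) went the other way, unlike the remaining members.

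Among A and C nucleotides with at least 20 stops in either library, each relative to the mean of its base in that RNA, 71 of 1101 in the members were at least 2-fold higher in unstressed than in starved cells and 230 at least 2-fold lower. The background was 8.85% and 14.2% of 154282 nucleotides. A site could meet the minimum through either library alone, and the starved one is deeper and holds more of the members, so that these counts are read no further. With a minimum of 20 stops in vitro in K+ instead, chosen after seeing the data, 9 of 214 were higher and 21 lower, against 9.12% and 11% of 120247. SNHG6 had 75 such sites, 9 of them lower and 4 higher, SNHG8 had 42, 5 of them lower, and SNHG16 had 16, 4 of them lower. Between unstressed cells and RNA in vitro in K+, 57 of 336 were higher and 49 lower, against 16.1% and 19.6% of 144198. SNHG16 alone held 28 of the higher and 14 of the lower sites, among its 53 sites. Between K+ and Li+ in vitro only 6 of 412 were higher in K+ and 7 lower, against 1.88% and 4.84% of 200014.

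A strong stop was a nucleotide with at least 10 times the mean stop count of its transcript (its E), provided that this mean was at least 1. The 8 members held 50 over the 6 libraries. There was 1 in each library without DMS, of 3900 listed nucleotides in Na+ and 3954 in K+. The background over all transcripts was 0.347% and 0.224%. Each in vitro library held 8, of 2756 in K+ and 3321 in Li+, against a background of 0.856% and 0.893%. Unstressed cells held 24 of 2484, against 3.51%, and starved cells 8 of 4520, against 1.77%. In each library the members' share was thus below that of all transcripts. Of the 8 in starved cells 7 were in EPB41L4A-AS1, which met the minimum in that library only, and without it 1 of 4331 was left. All 48 in libraries with DMS were at A. SNHG6 and SNHG8 held none.

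Windows around the strongest stop in unstressed cells are shown for 4 members, with the window around the single strong stop without DMS, because they carry these results. Capitals mark strong stops of the library named, and positions count from 1 at the start of the RefSeq record.
SNHG1, positions 1049 to 1078, unstressed, chr11:62619500-62619529, minus strand, exon 11: tgaggactggctgtcAatttgtgttgctgt
SNHG5, positions 302 to 331, unstressed, across the junction of exons 5 and 6: tccaaagttgcAAcgAtttctggctagtgc
ZFAS1, positions 861 to 890, unstressed, chr20:47905650-47905679, plus strand, exon 5: tgaagatctggctgAAccagttccacaagg
SNHG16, positions 2330 to 2359, unstressed, chr17:74561325-74561354, plus strand, exon 3: tcatcaagacagtAAAtcccagggcttggt
SNHG16, positions 591 to 620, no DMS in K+, chr17:74559586-74559615, plus strand, exon 3: gtgatctgctaatggGttgccacccacaac

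The pair of A at positions 527 and 528 in the last exon of GAS5 was strong in unstressed cells only. Position 527 had 18 and 15 stops without DMS, 29 (K+) and 34 (Li+) in vitro, 74 in unstressed and 104 in starved cells. Relative to the mean of GAS5 in each library this was an E of 2.62, 2.01, 6.50, 5.09, 15.3 and 4.72 in the same order. The stop count in starved cells was thus the highest, but its weight within the RNA was below that in unstressed cells and in vitro. Position 528 had an E of 11.2 in unstressed and 5.13 in starved cells.

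**Figure D5:**
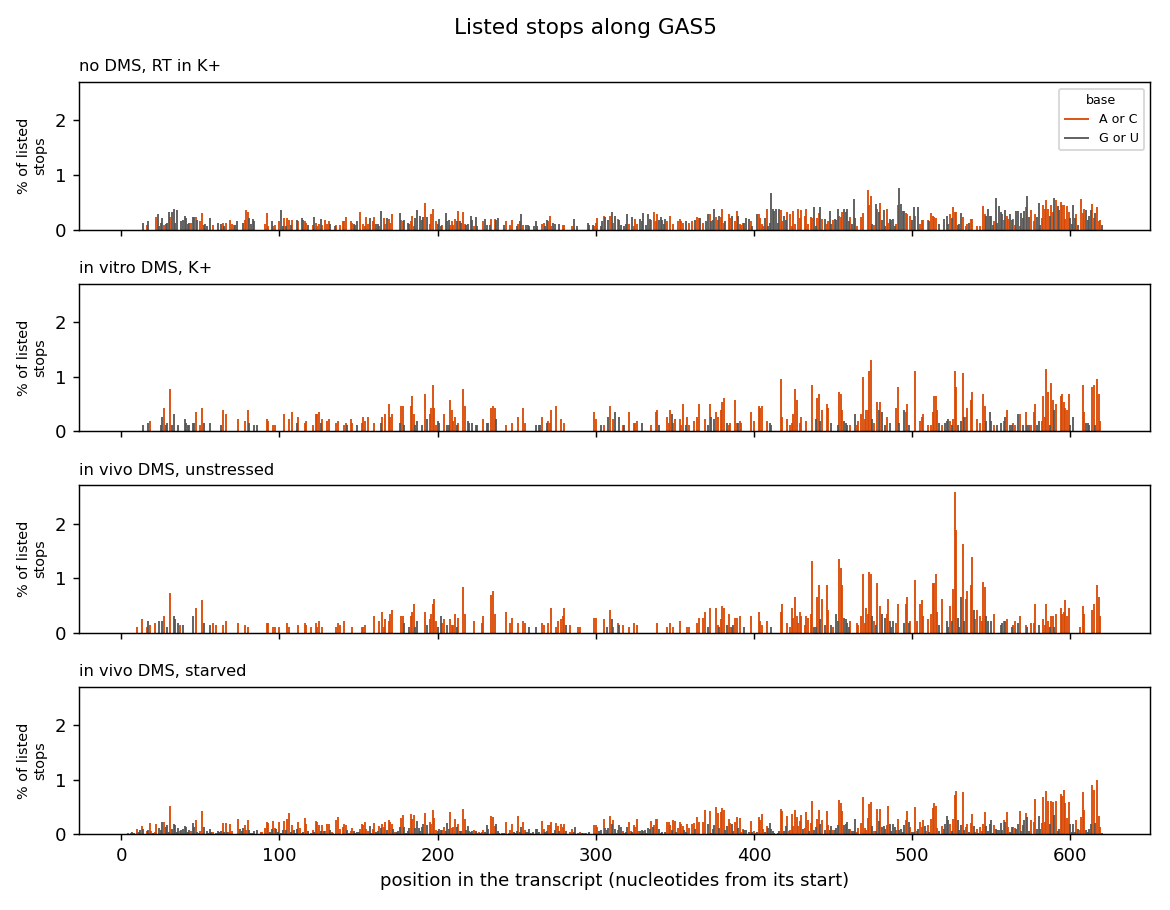
Each listed nucleotide of GAS5 as a percentage of the RNA's listed stops, by position from the start of the transcript, in 4 libraries, with A or C and G or U in separate colours. The tallest lines in unstressed cells are positions 527 and 528 (74 and 54 stops). Neither is the tallest in another panel, though position 527, with 29 stops, comes close to the tallest (34) in vitro in K+.

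SNHG16 showed its strong stops in unstressed cells in the 3′ part. At positions 2343, 2344 and 2345 the E was 12.2, 14.5 and 15.8 in unstressed and 4.60, 4.24 and 4.60 in starved cells. ZFAS1 was different, in that its pair at positions 875 and 876 was strong in unstressed cells (E of 16.3 and 18.8) and in both in vitro libraries (13.9 and 10.4 in K+, 15.6 and 13.7 in Li+), with 8.08 and 7.11 in starved cells. In ZFAS1 the mean is lowered by the 468 nt before the first listed stop. With the mean taken from that stop on, 1 strong stop was left in ZFAS1 in all libraries, and 23 of the 50 in all members. In SNHG5, position 317 reached an E of 14.0 in unstressed cells at 18 stops, so that these values are imprecise.

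G-quadruplexes, stacks of G tetrads that K+ stabilises, stop the enzyme at G without DMS, and the study set out to map them. A pattern of 4 runs, each of 3 or more G and joined by loops of no more than 7 nt, was found in none of the members. With runs of 2 or more G and loops of no more than 9 nt, it occurred in 7 regions of ZFAS1, 5 of EPB41L4A-AS1, 3 of SNHG16 and 1 each of SNHG5 and SNHG6. At least the first region of ZFAS1 and of EPB41L4A-AS1 starts before the first listed stop (positions 469 and 353), where stalling could not be seen. The strong stop without DMS was G606 of SNHG16, with 63 stops and an E of 15.0 under the Na+ label, and 58 stops and an E of 12.8 under the K+ label. It had 14 and 12 stops in vitro in K+ and Li+, under 3 in unstressed and 28 in starved cells. This stop did not differ 2-fold between the cations, so that the members held 0 cation-dependent strong stops at G under either assignment of the labels, among 1065 listed G. Over 1039179 listed G of all transcripts, such stops made up 0.0255% under the K+ label and 0.442% under the Na+ label. Of 121 G nucleotides with at least 20 stops in one of the 2 libraries, 5 had an E at least 2-fold higher under the K+ label and 4 under the Na+ label, with a median ratio of 1.00. Over all transcripts these shares were 3.66% and 9.56% of 70117 such G.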

How the data were processed

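The authors sequenced 60−80 nt RNA fragments, removed duplicates, mapped reads with Bowtie to hg19 transcripts (versions not given in the sources used here) without mismatches at unique positions, so that reads shared with copies of a gene are lost, and deposited, per transcript nucleotide, the RT stop counts of at least 3 and the ratio of that count to the mean of nucleotides of the same base. The ratio column was used to rebuild each base's mean and number of nucleotides, and so the stops of unlisted nucleotides. Rebuilt totals are estimates; listed counts are an alternative. Of 15739 transcripts, 15375 had a symbol in the RefSeq table. Members were matched to GENCODE by their listed bases. Ratios have conditional exact binomial intervals (scipy 1.17.1, Python 3.11.15), and steps were tested on simulated data. Other isoforms of a gene were not separable. Members, lists and rules were chosen with earlier results of these data known. From each list, the 2 largest and 2 smallest ratios are named, and the 5 transcripts nearest to GAS5 and to the members' mean. Some of what these rules select is not reported here.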

Additional observations from a re-analysis of the deposited data

How the results depend on the processing

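The count of members at least 1.5-fold higher in starved cells was 7 with listed counts only, relative to the median transcript, at G and U only, at A and C only, without strong stops and with the starved library thinned, and 6 at 2-fold; the members' own ratios stayed within their counting intervals in 28 of 48 recomputations, and none crossed 1. The background moved between 25.7% (no filter) and 38.5% (transcripts of up to 1200 nt, an alternative chosen after seeing the data). The lower A and C share in starved cells held for 8 members in both alternatives. The 50 strong stops became 764 at an E of at least 5, 0 at 20, 17 with the deposited ratio, 163 with no transcript minimum and 23 with the mean taken from the first listed nucleotide on, also chosen after seeing the data. Cation-dependent strong stops at G were 0 under the labels, under the opposite assignment and at a 3-fold difference, and 1 under the labels at an E of at least 5. With at least 20 listed stops in either in vivo library, a minimum that 3 of them met through starved cells alone, 18 of 20 hosted snoRNAs were higher, with a median of 3.08; the minimum used above was chosen after seeing the data. The median correlation between unstressed and starved profiles was 0.642, 0.681 (Spearman) and 0.628 (nucleotides listed in both). No paired analysis was possible because each condition is 1 library. Depth limits EPB41L4A-AS1 and SNHG5 most.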
